A study of Homo sapiens with 6 samples.

Results

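The amino acid transporters described here are 10 human genes of the solute carrier families SLC1, SLC3, SLC6, SLC7 and SLC38 that move amino acids across the plasma membrane. They were taken by symbol from a table of 63643 genes, and all 10 had counts and passed the filter on low counts. Polyadenylated RNA was sequenced from HEK293T, a common cell line grown out of human embryonic kidney, and the labels give GLO1 as deleted in every sample. GLO1 starts the main route that clears methylglyoxal (MGO), a reactive by-product of glycolysis. The MGO group (3 libraries) received 60 µM MGO for 4 h, per the treatment protocol (the library names carry another number, which the labels do not explain), and the Control group (3 libraries) was left untreated, both in high-glucose medium with serum and 2 mM L-glutamine. Nothing in the labels says whether the line is 1 clone. The study asked whether MGO brings about the transcript changes of the integrated stress response (ISR), in which phosphorylation of eIF2α raises the transcription factor ATF4.

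Cells take up essential amino acids by exchange and glutamine, alanine and similar amino acids by coupling to sodium. SLC3A2 (CD98 heavy chain) is no pore itself: it escorts a light chain of the SLC7 family to the membrane, where the light chain does the exchange. Sodium-coupled carriers of the SLC38 family fill the cell with the small neutral amino acids that these exchangers give out in return. ATF4 is known to raise several of these genes when amino acids run short, which makes them common readouts of the ISR.

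Total counts lay between 128270160 and 138680220 in MGO libraries and between 117427883 and 157639431 in Control libraries. All values below are CPM, counts relative to library size, after TMM scaling, whose factors were 0.815 to 0.858 in MGO and 1.186 to 1.214 in Control libraries. Scaling by library size alone moved the median log2 fold change of all genes by −0.52, and upper quartile scaling moved it by 0.17. GLO1 itself had counts in every library (101.8 ± 4.54 CPM in MGO and 37.3 ± 0.885 in Control, SD, n = 3 each), and the labels do not say which part of it is missing, so this checks no label. All 7 markers of embryonic kidney and HEK293T cells had counts. Their sums were 793 to 865 CPM in MGO and 485 to 519 CPM in Control libraries. Most of each sum was the marker VIM, with 699 ± 36.8 CPM in MGO and 377 ± 16.0 CPM in Control (SD, n = 3 each). At an edgeR adjusted p under 0.05, 2 of the 7 rose and 3 fell (71.4% called, against 79.3% of all genes). Fibroblast, blood and endothelial markers summed to 5.21 to 5.78, 1.22 to 1.87 and 0.0442 to 0.0727 CPM in MGO libraries, against 14.2 to 15.4, 0.989 to 1.40 and 0.211 to 0.288 CPM in Control libraries. HBB was at 0 in all libraries and PECAM1 at 0 in the MGO libraries, and the part of these markers in the results was not tested. In bulk RNA, fewer cells with a transcript and less of it per cell cannot be told apart.

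Of the 10 transporters, 3 rose after MGO (SLC3A2, SLC38A5 and SLC1A5) and 7 fell (SLC38A1, SLC7A1, SLC7A5, SLC7A6, SLC6A9, SLC38A2 and SLC1A4), at an edgeR adjusted p under 0.05. Across all 23109 genes tested, 79.3% were called, 38.8% as raised and 40.5% as lowered, so being called sets no gene apart here. The median log2 fold change of the 10 was −0.52, against −0.02 over all genes tested. For all 10, the CPM ranges of the 2 groups were apart, as for 81.5% of all genes tested. Taken as 1 sum, the transporters reached 1231, 1257 and 1312 CPM in MGO libraries, against 969, 1066 and 1088 CPM in Control libraries. This order rests on the scaling: by library size alone the sums were 1056, 1024 and 1085 CPM in MGO libraries, against 1176, 1279 and 1291 CPM in Control libraries. Without SLC3A2 the TMM-scaled sums were lower in MGO, with 687, 683 and 723 CPM in MGO libraries and 890, 990 and 1007 CPM in Control libraries. SLC3A2 made up 44.2, 45.7 and 44.9% of the counts of the 10 genes in MGO libraries, against 8.18, 7.12 and 7.46% in Control libraries.

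**Figure D1:**
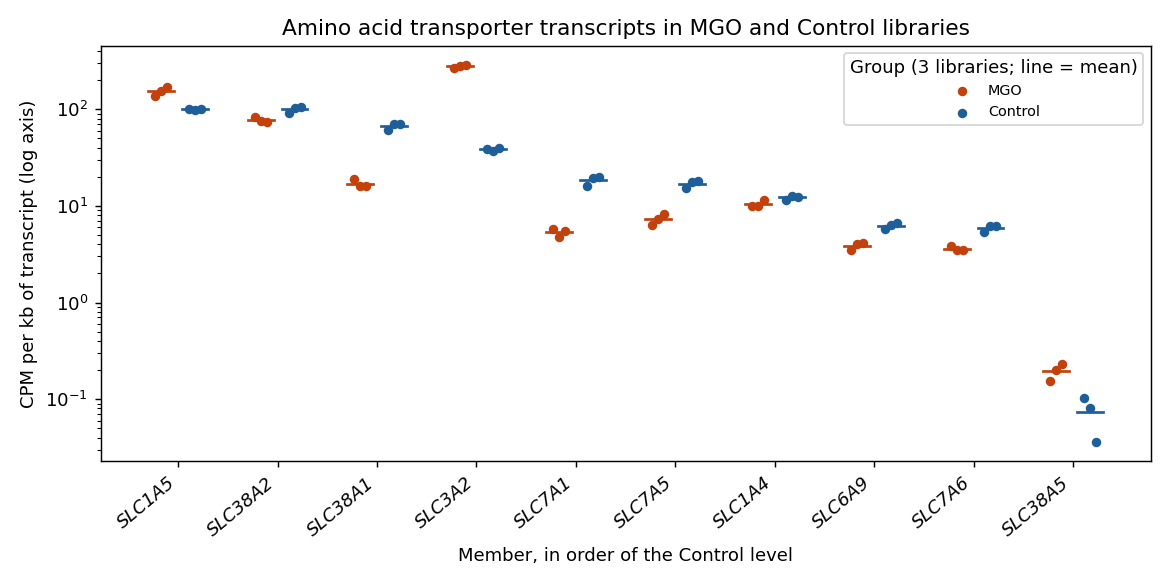
Level of each transporter per length, in CPM per kb of transcript on a log axis, with 1 point per library and a line at the mean of 3, MGO beside Control, in the order of the Control level. SLC3A2 is the highest of the 10 in MGO (279 CPM per kb), and 3 others lie above it in Control (38.6 CPM per kb).

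SLC3A2 (ENSG00000168003, GRCh38 chromosome 11, 62856102 to 62888875) had 545, 574 and 588 CPM in the MGO libraries, against 79.3, 75.8 and 81.2 CPM in the Control libraries. Every MGO library lay far above every Control library, and the spread within each group was small. The log2 fold change was 2.85 (SE 0.07, edgeR adjusted p = 1.38e-11), or 7.22-fold, and 98.6% of all genes tested had a lower one. The rise was 2.33 with scaling by library size alone and 2.69 with the trend on transcript length removed.

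RefSeq starts of the 10 genes were searched for the core of the C/EBP-ATF response element, the site that ATF4 dimers bind, spelled TGATGNAA on either strand. The windows ran from 250 bases before to 50 bases after each start, and 16 windows covered the 10 genes. The core stood in 1 window each of SLC3A2, SLC1A4, SLC38A1, SLC7A1 and SLC1A5, thus in 5 of 10 genes, against 4.46% of the 27305 genes and 3.62% of the 35116 windows in the table. Genes with several starts have more windows in which to match, and the 5 genes include both raised (SLC3A2, SLC1A5) and lowered (SLC1A4, SLC38A1, SLC7A1) members. An AP-1 site, TGANTCA, the element bound by FOS and JUN, stood in the same windows of SLC3A2 and SLC38A1 (2 of 10 genes, against 9.37% of all genes). An E-box, CACGTG, stood in windows of SLC7A5, SLC1A5 and SLC38A5 (3 of 10, against 8.77%), and a cAMP response element, TGACGTCA, in none (against 2.25%). No AP-1 match overlapped a core match. These are matches of letters, and binding was not measured.

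The 5 windows with the core are shown because they allow the sites of raised and lowered members to be compared, as the whole window of SLC3A2 (GRCh38.p14, chr11:62881449-62881748, plus strand) and as stretches of the other 4, 5′ to 3′ on the strand of the gene, with the core and AP-1 matches in capitals. The stretches lie at chr2:64989332-64989431 (plus strand), chr19:46784872-46784971 (minus), chr12:46266481-46266580 (minus) and chr13:29595642-29595741 (minus).
SLC3A2: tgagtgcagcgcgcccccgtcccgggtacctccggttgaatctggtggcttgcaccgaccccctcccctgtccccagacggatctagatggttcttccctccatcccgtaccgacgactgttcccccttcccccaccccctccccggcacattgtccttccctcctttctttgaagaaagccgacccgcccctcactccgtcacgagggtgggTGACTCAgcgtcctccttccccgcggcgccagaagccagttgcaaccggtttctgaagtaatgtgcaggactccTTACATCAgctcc
SLC1A4: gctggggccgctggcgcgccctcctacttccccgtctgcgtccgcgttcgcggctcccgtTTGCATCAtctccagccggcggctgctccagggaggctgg
SLC1A5: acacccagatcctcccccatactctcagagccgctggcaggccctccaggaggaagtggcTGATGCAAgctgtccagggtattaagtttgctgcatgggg
SLC38A1: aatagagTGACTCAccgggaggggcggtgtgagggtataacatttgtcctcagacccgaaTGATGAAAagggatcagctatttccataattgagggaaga
SLC7A1: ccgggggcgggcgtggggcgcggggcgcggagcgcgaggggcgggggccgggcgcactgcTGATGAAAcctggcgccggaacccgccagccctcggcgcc
The core of SLC3A2, at chr11:62881736-62881743, lies after the start, and its AP-1 match, at chr11:62881662-62881668, before it. The cores of SLC3A2 and SLC1A4 read in the reverse orientation, as TTACATCA and TTGCATCA. SLC1A5 holds TGATGCAA at chr19:46784904-46784911, before the start of its window. SLC7A1 has 1 window, whereas the cores of SLC3A2, SLC1A4, SLC1A5 and SLC38A1 lie at a start inside the gene, downstream of the outermost start in the table. SLC38A1 and SLC7A1, both lowered, share TGATGAAA, at chr12:46266513-46266520 and chr13:29595674-29595681. The window of SLC38A2 held none of the 4 motifs, which says nothing of sites elsewhere in the gene.

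SLC7A5 and SLC7A6, the 2 light chains among the 10, were both lower in MGO under TMM scaling. SLC7A5 (LAT1, which brings in leucine and other large neutral amino acids in exchange for glutamine; chromosome 16, 87830023 to 87869488) had 27.1, 31.0 and 35.0 CPM in MGO libraries, against 65.3, 74.8 and 76.8 CPM in Control libraries. All MGO libraries were lower than all Control libraries, with a log2 fold change of −1.22 (SE 0.10, edgeR adjusted p = 1.12e-07). Its pseudogenes SLC7A5P1 and SLC7A5P2 were at 0 in all 6 libraries, and how shared reads were counted is unknown, so the level of SLC7A5 is uncertain. With the trend on transcript length removed its log2 fold change was −0.49, and with all exons as length it was −1.15. The exons of SLC7A5 overlap those of the antisense gene AC126696.2 on the opposite strand by 271 bases.

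SLC7A6 (y+LAT2, which exchanges arginine and other cationic amino acids for neutral ones; chromosome 16, 68264516 to 68301823) had 24.2, 21.7 and 21.8 CPM in MGO libraries, against 33.4, 39.2 and 38.5 CPM in Control libraries. The groups did not overlap, and the log2 fold change was −0.71 (SE 0.08, edgeR adjusted p = 3.37e-06). This direction depends on transcript length: with the length trend removed the value turned to 0.57 (adjusted p = 2.16e-06), and with length taken over all annotated exons it was −0.10 (adjusted p = 0.20). Its exons overlap those of SLC7A6OS on the opposite strand by 3371 bases, and SLC7A6OS was higher in MGO (22.1 ± 1.09 CPM in MGO and 8.73 ± 0.655 in Control, SD, n = 3 each). With a strand setting not given in the sources used here, reads of the 2 genes cannot be told apart in the overlap.

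The ratio of heavy to light chain within a library needs no scaling by depth, but it depends on the lengths. Per kb of transcript, SLC3A2 over SLC7A5 was 42.0, 38.7 and 35.1 in MGO libraries, against 2.54, 2.12 and 2.21 in Control libraries. SLC3A2 over SLC7A6 was 77.7 ± 7.61 in MGO and 6.56 ± 0.677 in Control (SD, n = 3 each). The heavy chain thus gained on both light chains, by 4.08 and 3.56 on the log2 scale. With the length trend removed these gains were 3.17 and 2.12, and with that trend taken on all exons 4.16 and 3.11. SLC7A5 over SLC7A6 was 1.64, 2.10 and 2.36 in MGO libraries, against 2.87, 2.80 and 2.93 in Control libraries, a log2 difference of −0.51 (−1.06 and −1.05 with the length trend removed by either length). In an exact two-sided permutation test over the 6 libraries each of the 5 ratios tested gave p = 0.10, also after adjustment over the 5, which is the smallest p that 3 against 3 allows.

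SLC3A2 is known to pair with SLC7A5, SLC7A6 and, outside the 10 genes, SLC7A7, SLC7A8, SLC7A10 and SLC7A11. The sum of these 6 light chains was formed after the values were seen. The 6 together reached 13.001, 13.7 and 14.8 CPM per kb in MGO libraries, against 28.5, 32.6 and 33.2 CPM per kb in Control libraries. SLC3A2 stood at 267, 282 and 289 CPM per kb in MGO libraries, against 38.9, 37.2 and 39.8 CPM per kb in Control libraries. Transcripts of the heavy chain were thus 20.6, 20.6 and 19.5 times those of all 6 light chains in MGO libraries, and 1.36, 1.14 and 1.20 times in Control libraries. These multiples depend on the length used: with levels per kb of all annotated exons they were 10.3, 10.3 and 9.71 in MGO libraries, against 0.681, 0.566 and 0.595 in Control libraries, where the heavy chain was thus below the light chains. Among the light chains outside the 10 genes, SLC7A8 and SLC7A11 fell, whereas SLC7A7 (log2 fold change 0.12, edgeR adjusted p = 0.476) and SLC7A10 (−0.19, edgeR adjusted p = 0.259) missed the threshold. SLC7A5 held 48.9, 53.2 and 55.6% of the light chain sum in MGO libraries, against 53.8, 53.8 and 54.3% in Control libraries, so the groups overlapped in its share. The share of the cystine carrier SLC7A11 was 1.36, 1.63 and 1.37% in MGO libraries and 6.13, 6.69 and 6.98% in Control libraries. SLC7A6 held 29.8, 25.3 and 23.6% in MGO libraries, against 18.7, 19.2 and 18.6% in Control libraries. The shares of SLC7A7 (2.08 to 2.79% in MGO and 0.921 to 0.993% in Control) and SLC7A10 (2.52 to 2.69% in MGO and 1.15 to 1.61% in Control) were also higher without overlap, and that of SLC7A8 (14.4 to 14.9% in MGO and 17.99 to 18.75% in Control) was lower.

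**Figure D2:**
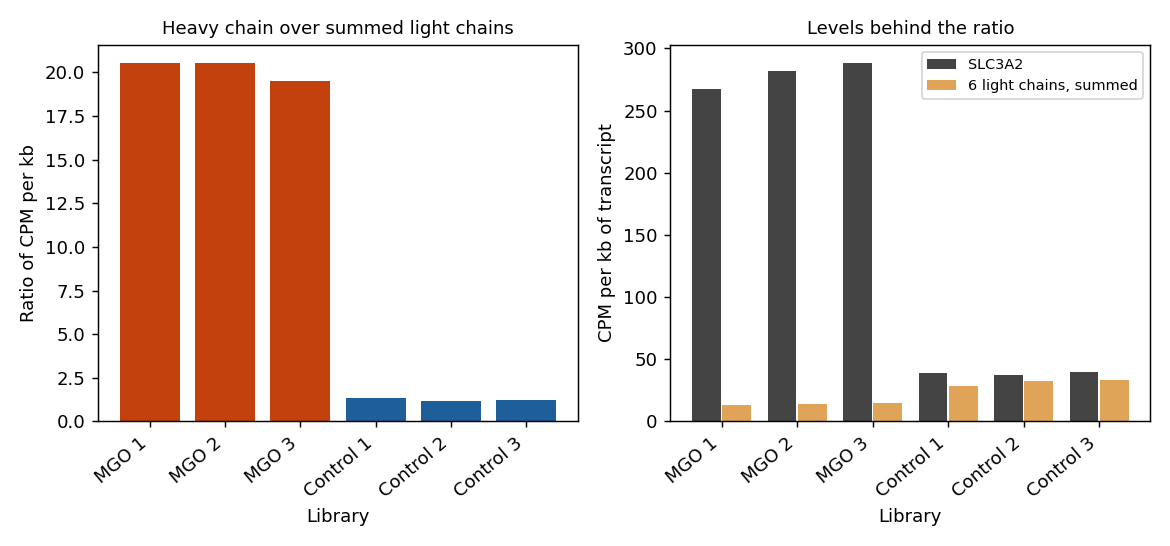
SLC3A2 set against the 6 light chains that pair with it, by library: the left panel shows the ratio of SLC3A2 to the summed light chains in CPM per kb, and the right panel the 2 levels behind it in CPM per kb of transcript. The ratio is 19.5 to 20.6 in the 3 MGO libraries and 1.14 to 1.36 in the 3 Control libraries with the median transcript lengths plotted, and 9.71 to 10.3 in MGO and 0.566 to 0.681 in Control with all exons as length.

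SLC7A1 (CAT-1, an importer of arginine and lysine that works without SLC3A2; chromosome 13, 29509410 to 29595688) had 42.0, 35.2 and 40.2 CPM in MGO libraries, against 117.8, 142.5 and 144.8 CPM in Control libraries. Each MGO library was far below each Control library, with a log2 fold change of −1.79 (SE 0.09, edgeR adjusted p = 2.59e-09). Its transcript is the longest of the 10 by median length, at 7347 nt. With the length trend removed the fall was −0.29 (adjusted p = 0.000852), and with all exons as length it was −1.15.

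The 2 SLC1 exchangers differed in direction under TMM scaling. SLC1A5 (ASCT2, the main sodium-dependent glutamine exchanger of many dividing cells; chromosome 19, 46774883 to 46788594) had 268.2, 300.04 and 328.2 CPM in MGO libraries, against 194.9, 193.3 and 197.7 CPM in Control libraries. The MGO libraries were all higher and also more spread than the Control libraries, and the log2 fold change was 0.61 (SE 0.07, edgeR adjusted p = 8.02e-06). By library size alone it was 0.086 (adjusted p = 0.273), so this call rests on the scaling, and it was 0.41 with the length trend removed and 0.355 with all exons as length. The exons of SLC1A5 overlap those of the antisense gene AC008622.2 on the opposite strand by 780 bases, and the strand setting is unknown here too. SLC1A4 (ASCT1, an exchanger of alanine, serine, cysteine and threonine; chromosome 2, 64988477 to 65023865) had 28.9, 29.1 and 33.2 CPM in MGO libraries, against 33.3, 36.8 and 36.1 CPM in Control libraries. The highest MGO library and the lowest Control library nearly met, and the log2 fold change of −0.22 (SE 0.07, edgeR adjusted p = 0.0172) was the smallest of the 10 in size. The call did not hold when MGO replicate 2 (adjusted p = 0.0697), Control replicate 2 (0.0725) or Control replicate 3 (0.0602) was left out, under upper quartile scaling (0.593) and with the length trend removed (0.883), and turned to 0.28 with all exons as length (0.0027), where both exchangers were thus raised. SLC1A5 over SLC1A4 per kb was 13.7, 15.3 and 14.6 in MGO libraries, against 8.67, 7.78 and 8.12 in Control libraries, a gain of 0.83 on the log2 scale, which was 0.42 with the length trend removed and 0.072 with all exons as length.

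Among the sodium-coupled SLC38 carriers, SLC38A1 and SLC38A2 lie next to each other on chromosome 12 (46183063 to 46270017 and 46358189 to 46372867). SLC38A1 (SNAT1, an importer of glutamine and other neutral amino acids) had 54.7, 46.1 and 46.8 CPM in MGO libraries, against 176.1, 202.6 and 204.2 CPM in Control libraries. Under TMM scaling it had the largest fall of the 10, with no overlap and a log2 fold change of −1.98 (SE 0.09, edgeR adjusted p = 6.12e-10), or 3.95-fold lower. With the length trend removed SLC38A1 was at −1.77. With all exons as length it was at −1.01, a smaller fall than those of SLC7A1 and SLC7A5 (−1.15 each). SLC38A2 (SNAT2, the system A carrier known to be induced by amino acid shortage) had 233.6, 211.1 and 208.3 CPM in MGO libraries, against 256.3, 286.8 and 294.8 CPM in Control libraries. Its fall was small, with a log2 fold change of −0.36 (SE 0.07, edgeR adjusted p = 0.000637), against −0.88 by library size alone, −0.19 with upper quartile scaling or the length trend removed, and 0.079 with all exons as length (adjusted p = 0.280). SLC38A2 over SLC38A1 per kb was 4.41, 4.74 and 4.60 in MGO libraries, against 1.51, 1.46 and 1.49 in Control libraries. The 2 neighbours thus changed unequally, by 1.62 on the log2 scale (1.58 with the length trend removed, and 1.09 with all exons as length).

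SLC38A5 (SNAT5, a carrier of glutamine, histidine and glycine; chromosome X, 48458537 to 48470256) was barely present, with 36, 48 and 56 counts in MGO libraries and 31, 32 and 13 counts in Control libraries. In CPM these were 0.327, 0.425 and 0.489 in MGO and 0.218, 0.169 and 0.0749 in Control libraries, with a log2 fold change of 1.44 (SE 0.32, edgeR adjusted p = 0.00132). The large SE goes with these low counts, the value was 0.92 by library size alone, and the gene is left out by a filter of 1 CPM. SLC6A9 (GLYT1, the sodium- and chloride-coupled glycine carrier; chromosome 1, 43991500 to 44031467) had 7.48, 8.76 and 8.97 CPM in MGO libraries, against 12.4, 13.7 and 14.4 CPM in Control libraries. The groups did not overlap, and the log2 fold change was −0.68 (SE 0.09, edgeR adjusted p = 1.53e-05), or −1.21 by library size alone. Its exons overlap those of CCDC24 on the opposite strand by 404 bases, a gene that was higher in MGO (10.9 ± 1.15 CPM in MGO and 7.31 ± 0.778 in Control, SD, n = 3 each).

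Per kb of transcript, the order of the levels differed between the groups. In MGO libraries SLC3A2 was highest (279 ± 10.9 CPM per kb), followed by SLC1A5 (153 ± 15.4), SLC38A2 (77.7 ± 4.95), SLC38A1 (16.98 ± 1.66), SLC1A4 (10.5 ± 0.843), SLC7A5 (7.29 ± 0.934), SLC7A1 (5.33 ± 0.484), SLC6A9 (3.88 ± 0.372), SLC7A6 (3.61 ± 0.232) and SLC38A5 (0.197 ± 0.0387; all SD, n = 3). Only SLC6A9 and SLC7A6 overlapped among neighbours in this order. In Control libraries the order was SLC1A5 (100.1 ± 1.14 CPM per kb), SLC38A2 (99.7 ± 7.25), SLC38A1 (67.1 ± 5.46), SLC3A2 (38.6 ± 1.33), SLC7A1 (18.4 ± 2.03), SLC7A5 (16.97 ± 1.44), SLC1A4 (12.2 ± 0.639), SLC6A9 (6.24 ± 0.452), SLC7A6 (5.92 ± 0.506) and SLC38A5 (0.0733 ± 0.0345; all SD, n = 3). Here SLC1A5 and SLC38A2, SLC7A1 and SLC7A5, and SLC6A9 and SLC7A6 overlapped. With the length taken over all annotated exons SLC3A2 was still highest in MGO (109.9 CPM per kb) but below 5 others by mean in Control (15.2 CPM per kb, overlapping SLC7A5), and SLC38A1 stood below 5 others by mean in MGO (4.91 CPM per kb, overlapping SLC7A1).

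**Figure D3:**
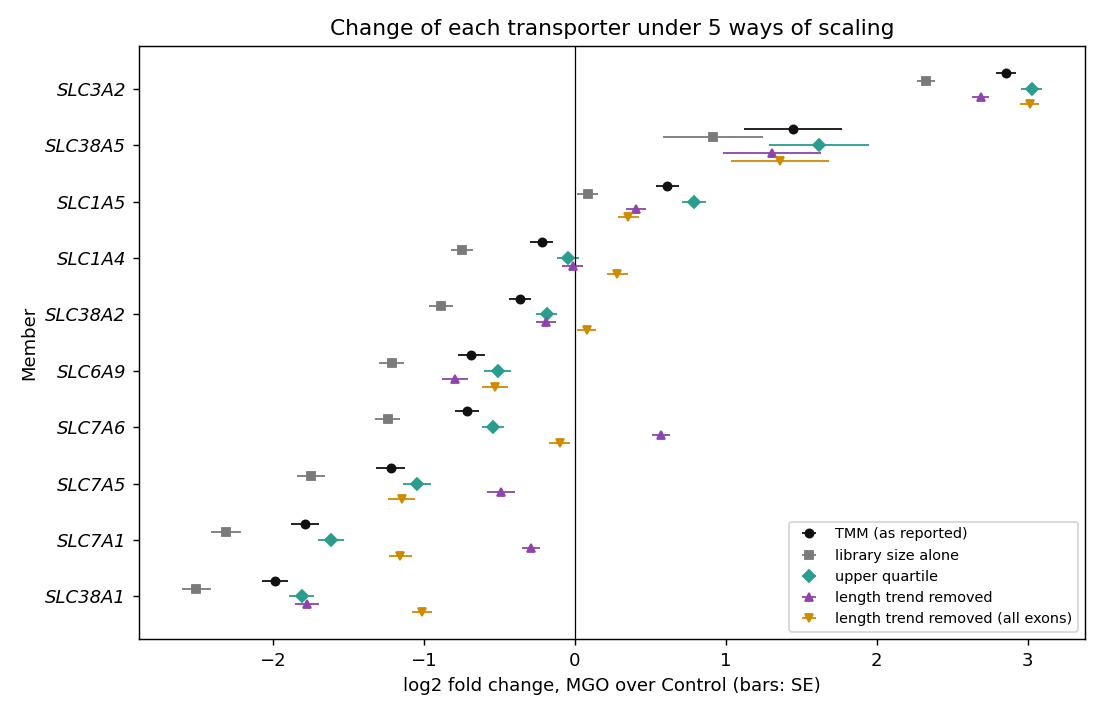
Log2 fold change of each transporter, MGO over Control, with SE bars, under TMM scaling and 4 other ways of scaling. SLC3A2 lies at 2.33 or above in all 5, while SLC7A6, SLC1A4 and SLC38A2 lie on both sides of 0.

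Across all tested genes, long transcripts tended to be lower in MGO, so the members are set beside that trend. The Spearman correlation of log2 fold change with transcript length across 21773 genes was −0.365, a description of genes that share these 6 libraries. The median log2 fold change was 0.04 over the 4402 genes with transcripts of 2000 to 3000 nt, the range that holds SLC3A2, SLC38A5, SLC6A9, SLC38A2, SLC1A4 and SLC38A1. In that range SLC3A2 lay at 2.85 and SLC38A1 at −1.98, on opposite sides of that median. Over all annotated exons the 2 are less alike in length, with 5178 bases for SLC3A2 and 10015 for SLC38A1. With the trend on that length removed they were at 3.01 and −1.01. SLC1A5, at 0.61, lay near the median of 0.47 over the 5431 genes of 1000 to 2000 nt. At 1951.5 nt it is at the edge of this range, next to the one with a median of 0.04. With the length trend removed SLC1A5 was still at 0.41. SLC7A5, at −1.22, lay below the median of −0.55 over the 4212 genes of 3000 to 5000 nt. Over the 2260 genes of 5000 nt or more the median was −1.45, and there SLC7A1 lay at −1.79 and SLC7A6 at −0.71. With the length trend removed 4 transporters rose and 5 fell, the fourth rise being that of SLC7A6. Over all genes 8873 rose and 8068 fell of 21773 tested in that setting. With all exons as length 4 transporters rose and 4 fell, against 8966 raised and 8264 lowered of all 21781 genes tested.

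**Figure D4:**
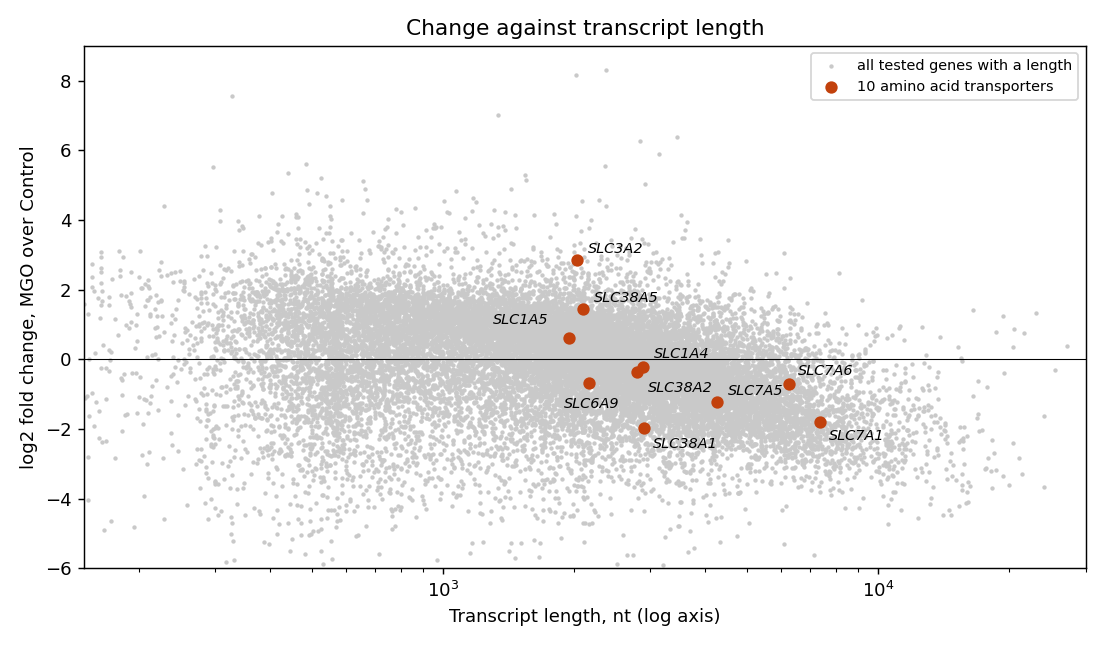
Log2 fold change, MGO over Control, against transcript length on a log axis, for all tested genes with a length (grey) and the 10 transporters (orange); 408 of 21773 genes lie outside the plotted range. SLC3A2 (2.85) and SLC38A1 (−1.98) differ widely at similar median transcript lengths, but over all exons they have 5178 and 10015 bases. The 2 longest by the plotted length, SLC7A1 and SLC7A6, both lie below 0.

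Other plasma membrane amino acid transporters were mostly lower in MGO. Of 30 listed, 20 passed the filter on low counts, of which 2 rose, 14 fell and 4 missed the threshold (80% called, against 79.3% of all genes), with a median of −0.83. SLC7A11, the cystine carrier, fell by 3.37 on the log2 scale (SE 0.12), and SLC7A2 (CAT-2, a cationic amino acid carrier) by 3.22 (SE 0.13; edgeR adjusted p = 4.02e-10), to 6.83 ± 1.29 CPM in MGO, against 63.5 ± 7.49 CPM in Control (SD, n = 3 each). With the length trend removed the log2 fold changes of SLC7A11 and SLC7A2 were −1.51 and −1.68, and with all exons as length −2.44 and −2.55. SLC43A1 (LAT3, a facilitated carrier of large neutral amino acids) rose by 1.18 (SE 0.10, edgeR adjusted p = 1.59e-07), and SLC38A3 (SNAT3, a glutamine carrier) by 0.57 (SE 0.13), which was 0.04 by library size alone (adjusted p = 0.763).

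Of 9 lysosomal transporters 8 were tested, and 5 rose and 3 fell (100% called, against 79.3% of all genes, median 0.18), but only 3 rose when MGO replicate 2 or 3 or Control replicate 1, 2 or 3 was left out, and 2 rose by library size alone. SLC66A1, an exporter of cationic amino acids from lysosomes, rose by 1.12 (SE 0.10), and SLC15A4, a histidine and peptide carrier, by 0.77 (SE 0.06). SLC36A1 (PAT1, a proton-coupled exporter of small neutral amino acids) fell by 2.38 (SE 0.08, edgeR adjusted p = 8.11e-11), with 6.43 ± 0.247 CPM in MGO and 33.6 ± 2.08 CPM in Control (SD, n = 3 each). SLC38A7, a lysosomal glutamine and asparagine exporter, fell by 0.78 (SE 0.07). Its value was −0.58 with the length trend removed and −0.27 with all exons as length. By library size alone the values of SLC66A1 and SLC15A4 were 0.59 and 0.24. Of 11 mitochondrial carriers 10 were tested, and 1 rose and 6 fell (70% called, against 79.3% of all genes, median −0.23), with 9 falls by library size alone and 3 with upper quartile scaling. The glycine importer SLC25A38 rose by 1.44 (SE 0.06), and the ornithine carrier SLC25A15 and the basic amino acid carrier SLC25A29 fell by 1.04 and 0.94 (SE 0.06 and 0.07). SLC25A29 was at −1.01 with the length trend removed and at −0.35 with all exons as length.

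Among 13 regulators of these transporters, 7 rose, 4 fell and 2 missed the threshold (84.6% called, against 79.3% of all genes, median 0.92). ATF4 had 2303 ± 59.1 CPM in MGO and 383 ± 10.5 CPM in Control (SD, n = 3 each; log2 fold change 2.59, SE 0.06), and DDIT3, which encodes the stress factor CHOP, rose by 3.52 (SE 0.07). EIF2AK4 (GCN2, the kinase that senses amino acid shortage) fell by 1.86 (SE 0.07, edgeR adjusted p = 1.78e-10), with 22.0 ± 0.902 CPM in MGO and 79.8 ± 4.01 CPM in Control. NEDD4, a ubiquitin ligase, fell by 2.08 (SE 0.08, edgeR adjusted p = 2.71e-10). With the length trend removed NEDD4 and EIF2AK4 were at −0.67 and −1.38, and with all exons as length at −1.22 and −0.68. SLC3A2, SLC38A5 and SLC1A5 were higher in MGO under TMM scaling. Among the lowered transporters were SLC7A5, SLC7A1, SLC7A11 and SLC38A2. With the length trend removed these 4 were at −0.49, −0.29, −1.51 and −0.19. With all exons as length SLC7A5, SLC7A1 and SLC7A11 were at −1.15, −1.15 and −2.44, and SLC38A2 turned to 0.079. The part of ATF4 in these changes was not tested.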

How the data were processed

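The deposited table holds raw counts per gene of polyA-selected, stranded libraries. The submitters' processing notes list featureCounts 2.0.6, STAR 2.7.0a, DESeq2 1.42.0, Trim Galore 0.6.10, FastQC 0.12.0, SAMtools 1.19.2 and the build hg38. Annotation, strand setting and the handling of multi-mapped reads were not found in the labels or files. Replicates are separate libraries per the labels, and separate cultures are not mentioned, so the p-values reflect only library-to-library spread, possibly technical.

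The test was the quasi-likelihood test of edgeR 4.0.16 under R 4.3.3, after filterByExpr and TMM, with Benjamini-Hochberg adjustment over all genes (threshold 0.05), and was checked on simulated data. SE is the absolute log2 fold change over the square root of F. Lengths are medians over basic coding transcripts of GENCODE 29 (GRCh38), and promoters are RefSeq GRCh38.p14. The length trend was removed per library as a lowess offset (span 0.3). limma 3.58.1 (voom) and DESeq2 served as alternatives. Members and lists were chosen with earlier results of these data known. Named genes are the 10 transporters, GLO1, ATF4 and, per list, the top 2 rises and top 2 falls by size. The rises and falls were taken among calls with a mean of at least 1 CPM. SLC7A6OS, CCDC24, VIM, HBB and PECAM1 were added after their values were seen. AC126696.2 and AC008622.2 are named for their overlap alone. The deviations of same-numbered libraries correlated with r of 0.041, 0.018 and 0.013. These were all positive, but lay within the range for unlike numbers, −0.051 to 0.044. Such correlations over 3 libraries per group cannot exclude a shared culture or day. The labels do not say whether the numbers mark one.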

Additional observations from a re-analysis of the deposited data

How the results depend on the processing

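SLC3A2, SLC7A1, SLC7A5, SLC38A1 and SLC6A9 kept direction and call in every alternative, and SLC38A5 in every one that tested it. With the length trend removed SLC7A6 turned to 0.57 and SLC1A4 stood at −0.012. With all exons as length, chosen after seeing the data, SLC7A6 stood at −0.10, SLC1A4 turned to 0.28 and SLC38A2 to 0.079, and 4 transporters fell. SLC1A4 was −0.044 under upper quartile scaling and −0.28 to −0.18 without single libraries, and SLC1A5 was 0.086 by library size alone. That scaling gave 5673 raised and 12885 lowered genes (30.6% raised among calls, in place of 48.9%), 1 raised gene among the other plasma membrane transporters, and 2 raised and 5 lowered lysosomal ones. With all exons as length 4 other plasma membrane transporters rose. Mitochondrial carriers had 3 falls under upper quartile scaling and 2 rises with either length trend removed. The log2 differences between groups of the ratios, recomputed after seeing the data with the length trend removed, were 3.17 (SLC3A2 over SLC7A5), 2.12 (SLC3A2 over SLC7A6), −1.06 (SLC7A5 over SLC7A6) and 0.42 (SLC1A5 over SLC1A4). With all exons as length they were 3.11 (SLC3A2 over SLC7A6), −1.05 (SLC7A5 over SLC7A6), 0.072 (SLC1A5 over SLC1A4) and 1.09 (SLC38A2 over SLC38A1). Lysosomal rises numbered 3 to 5 without single libraries. With the replicate block 8869 genes rose and 9299 fell, and 3 transporters rose and 7 fell, so it changed no call of theirs. The causes were not tested. Low counts limit SLC38A5, and unknown transcript use limits every level per length.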
